A study of Mus musculus with 8 samples.

Results

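The libraries numbered 2 were set against the libraries numbered 1 of the same siPOOL, to ask which transcripts and cell states differed between the replicates whatever the siPOOL. The members were the count columns whose name ends in that number: 4 libraries numbered 2 and 4 numbered 1, which together are all 8 libraries of the series. All 8 came from mouse E14 embryonic stem cells of 129/Ola background in which the miR-290-295 microRNA cluster is deleted, so no library of wild-type cells was among them. The cells were grown on gelatin in 15% serum with 100 U/ml LIF and transfected for 36 h with 5 nM of a siPOOL, which is a pool of many siRNAs that target 1 transcript. The siPOOLs were directed at the transcription factor genes Tfap4 (siTfap4), Wiz (siWiz) and Zic2 (siZic2), beside a negative control (siNeg), and each gave 1 library numbered 2 and 1 numbered 1. The series design calls them biological duplicates. The labels do not say whether a number marks a shared culture, day or batch, nor whether the cells were 1 clone.

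Embryonic stem cells in serum and LIF are a mixture of states. Most cells are in a naive pluripotent state held by LIF, STAT3 and a set of transcription factors, and neighbouring cells can pass toward a formative or primed state, toward primitive endoderm, or for a short time into a 2C-like state that expresses genes of the early embryo. Some genes of the germline are also transcribed in these cells. In bulk RNA, fewer cells in a state and less RNA per cell cannot be told apart.

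Totals lay between 8829051 and 10795092 counts in the libraries numbered 2 and between 8326675 and 13788856 in those numbered 1. Within every siPOOL the libraries were apart by more than sampling of reads gives (chi-square of 17.7 to 37.7 per degree of freedom). Ribosomal protein genes took 11.2 to 12.2% of the counts in libraries numbered 2 and 8.18 to 10.9% in those numbered 1, without overlap. Pseudogenes took 1.17 to 1.51% in libraries numbered 2 and 0.843 to 1.15% in those numbered 1. The targeted genes did not pass the test between the numbers: the log2 difference, number 2 over number 1, was 0.20 for Tfap4, 0.03 for Wiz and -0.46 for Zic2 (edgeR quasi-likelihood test, Benjamini-Hochberg adjusted p = 0.543, 0.947 and 0.450). In the siPOOL directed at it, Tfap4 stood at 15.7 CPM in siTfap4 number 2 and 12.03 CPM in number 1. Wiz stood at 19.7 CPM in siWiz number 2 and 16.8 CPM in number 1, and Zic2 at 1.83 CPM in siZic2 number 2 and 2.15 CPM in number 1.

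The labelled cell type was checked against its markers. Sox2, a core pluripotency factor, lay between 757.5 and 903.7 CPM in libraries numbered 2 and between 682.2 and 898 CPM in those numbered 1. Zfp42, a naive marker, lay between 237.5 and 369 CPM in libraries numbered 2 and between 311 and 455 CPM in those numbered 1. Among the other pluripotency markers, Pou5f1 was lower and Nanog was more variable. Pou5f1 lay between 22.9 and 48.1 CPM in libraries numbered 2 and between 17.6 and 57.4 CPM in those numbered 1. Nanog lay between 177.5 and 515.6 CPM in libraries numbered 2 and between 77.6 and 399 CPM in those numbered 1. Of the 4 fibroblast markers checked, the collagen genes Col1a1, Col1a2 and Col3a1 had 12, 1 and 0 counts in the libraries numbered 2 together, against 9, 1 and 1 in those numbered 1. The fourth, the surface protein gene Thy1, lay between 6.68 and 9.61 CPM in libraries numbered 2 and between 8.74 and 11.6 CPM in those numbered 1.

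Few transcripts passed a test for a difference between the numbers over all siPOOLs. Of 14647 genes tested, 4 passed (0.0273%), with Stra8, Msc and Gm21761 higher (0.0205%) and Dnah8 lower (0.00683%) in the libraries numbered 2. All adjusted p-values below, unless another tool is named, come from edgeR's quasi-likelihood test with siPOOL and number as terms and Benjamini-Hochberg adjustment over these genes. Before adjustment, 2264 genes had a p under 0.05 (15.5%), of which 1104 were higher (7.54%) and 1160 lower (7.92%). In 3664 genes (25%) the difference had the same sign in all 4 siPOOLs, and in 885 genes (6.04%) no library numbered 2 overlapped one numbered 1. DESeq2 called 139 genes, limma voom 8, and edgeR 447 when every gene with at least 1 count was kept. Of these 447, 0 lay outside the 14647 genes tested, so the same genes had smaller p-values in that fit. The count of edgeR also hung on single siPOOLs: it was 61 without the siTfap4 pair, 2 without the siWiz pair, 1 without the siZic2 pair and 0 without the siNeg pair, where 1179 genes had an unadjusted p under 0.05.

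Stra8, a gene induced by retinoic acid and needed by germ cells to enter meiosis, gave the smallest p. It had 223 CPM with siTfap4, 168 with siWiz, 165 with siZic2 and 154.5 with siNeg among the libraries numbered 2, against 83.2, 61.2, 47.5 and 47.7 CPM in the same siPOOLs among those numbered 1. The lowest library numbered 2 was well above the highest numbered 1. Its mean was 178 ± 30.8 CPM in number 2 and 59.9 ± 16.8 CPM in number 1 (SD, n = 4 libraries each), 3.02-fold higher (log2 1.59, SE 0.14, adjusted p = 0.00108). Each siPOOL showed the gain, with log2 differences of 1.42 with siTfap4, 1.45 with siWiz, 1.79 with siZic2 and 1.69 with siNeg. These rested on 1534 to 1902 counts in libraries numbered 2 and 574 to 686 in those numbered 1. Without the siNeg pair the difference was 1.56, with an adjusted p of 0.0779. The gene lies on chromosome 6 (ENSMUSG00000029848; GRCm38, 34920163 to 34939344, plus strand).

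Dnah8, which encodes a heavy chain of the dynein motors that move cilia and flagella, was the 1 gene called lower. The libraries numbered 2 had 27.3 CPM with siTfap4, 22.8 with siWiz, 21.2 with siZic2 and 28.2 with siNeg, against 82.0, 53.1, 65.3 and 55.5 CPM in those numbered 1. The groups did not overlap. The mean was 24.9 ± 3.39 CPM in number 2 and 63.9 ± 13.1 CPM in number 1, 2.55-fold lower (log2 -1.35, SE 0.16, adjusted p = 0.0168). The adjusted p was 0.0937 without the siWiz pair, 0.0724 without the siZic2 pair and 0.127 without the siNeg pair. Dnah8 lies on chromosome 17 (ENSMUSG00000033826; 30624354 to 30877365, plus strand).

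The promoters of Stra8 and Dnah8 are shown as those of the gene with the smallest p and of the gene called lower, from 250 bases before to 50 after the start in RefSeq (GRCm38.p6). They were searched on both strands for AGGTCA, a half-site bound by retinoic acid receptors but not by them alone, and matches are in capitals. Both are on the plus strand, Stra8 at chr6:34920698-34920997 and Dnah8 at chr17:30626686-30626985. Both windows lie inside the gene spans given above, downstream of the gene starts there. The bases before those gene starts were not searched.
Stra8: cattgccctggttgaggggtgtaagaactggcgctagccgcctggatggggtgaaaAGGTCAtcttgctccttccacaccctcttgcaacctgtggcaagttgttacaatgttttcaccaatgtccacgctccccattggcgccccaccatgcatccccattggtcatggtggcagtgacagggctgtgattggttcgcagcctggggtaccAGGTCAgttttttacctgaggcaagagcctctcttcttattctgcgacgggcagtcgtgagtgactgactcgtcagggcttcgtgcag
Dnah8: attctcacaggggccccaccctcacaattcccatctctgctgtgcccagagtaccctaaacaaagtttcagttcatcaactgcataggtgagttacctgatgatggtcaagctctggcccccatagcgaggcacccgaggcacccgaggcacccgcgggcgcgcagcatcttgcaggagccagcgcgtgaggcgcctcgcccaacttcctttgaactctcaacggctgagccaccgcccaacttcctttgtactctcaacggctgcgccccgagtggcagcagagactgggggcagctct
Stra8 held AGGTCA at 194 and at 38 bases before the start, and these letters did not occur in the Dnah8 window. Of the 13113 windows of tested genes, 12.3% held the word at least once and 0.877% held it 2 or more times. A gene could have more than 1 window there. The 23 genes with an adjusted p under 0.10 that had a window were counted with 1 window each, so the shares differ in unit. Of these 23, 3 held the word (13%), 1 of them, Stra8 itself, 2 or more times. Stra8 was picked by its p, so its matches are no separate support. Of the 10 windows of genes named for this contrast, those of Stra8 and Aurkc held it. A match is a description of the letters and not of binding. RefSeq promoters were matched for 10 of these 12 genes.

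Msc encodes musculin, a basic helix-loop-helix repressor first known from muscle and blood cells. It had 66.1 CPM with siTfap4, 55.7 with siWiz, 56.5 with siZic2 and 84.0 with siNeg among the libraries numbered 2, against 29.4, 27.5, 27.9 and 34.1 CPM among those numbered 1. The libraries numbered 1 lay close together and under all of those numbered 2. Its mean was 65.6 ± 13.2 CPM in number 2 and 29.7 ± 3.03 CPM in number 1, 2.18-fold higher (log2 1.13, SE 0.14, adjusted p = 0.0177). The call ended without the siWiz pair (adjusted p = 0.116), the siZic2 pair (0.0724) or the siNeg pair (0.438). Msc lies on chromosome 1 (ENSMUSG00000025930; 14753346 to 14755992, minus strand).

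Gm21761, a protein-coding gene model of chromosome 13 (ENSMUSG00000096175; 119912095 to 119929272, minus strand), was also higher. It had 14.4 CPM with siTfap4, 30.9 with siWiz, 9.57 with siZic2 and 7.69 with siNeg in number 2, against 3.84, 13.9, 1.94 and 1.83 CPM in number 1. It rose in each siPOOL, but its level in siWiz number 1 was above those of siZic2 and siNeg number 2, so the groups overlapped (log2 1.79, SE 0.23, adjusted p = 0.0177). Of the sequence at its transcript end, 73.1% is shared with Gm20767, AF067061 and Gm21818, so its counts are uncertain. Without the siNeg pair the adjusted p was 0.438 and without the siZic2 pair 0.0724.

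**Figure D1:**
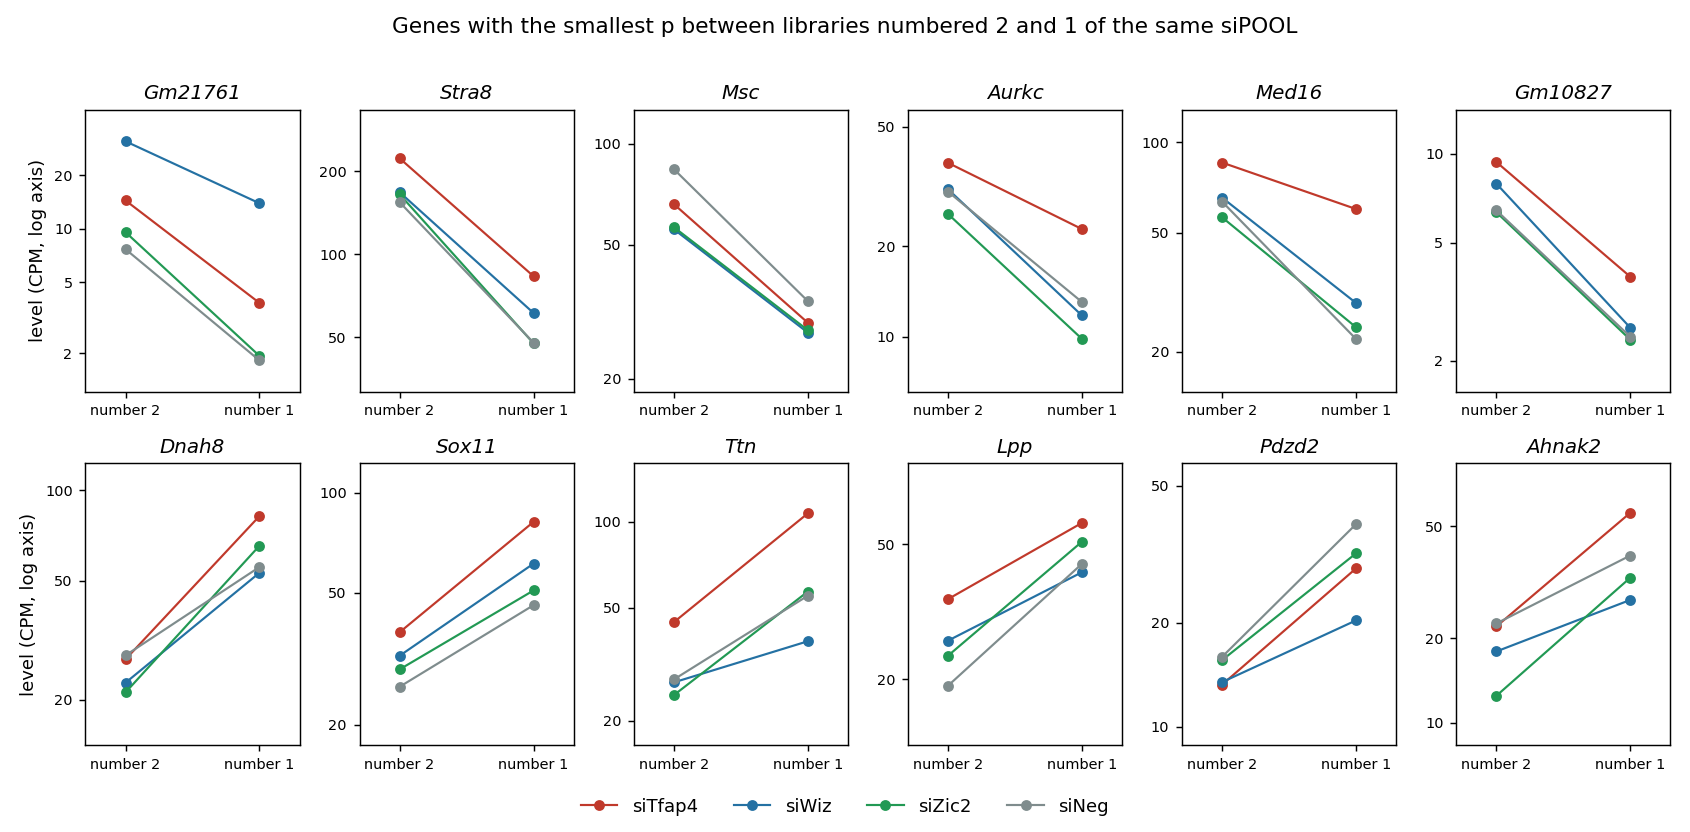
Level in CPM (log axis) of 12 genes in the libraries numbered 2 (left) and numbered 1 (right), 1 point per library, with lines joining the libraries of a siPOOL. The upper genes are higher and the lower genes are lower in number 2; Stra8, Msc, Gm21761 and Dnah8 passed the test, and the other 8 did not.

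At a looser threshold, 40 genes, the 4 among them, had an adjusted p under 0.10, 27 higher and 13 lower in the libraries numbered 2, a threshold chosen after the values were seen. All 40 differed in the same direction in all 4 siPOOLs (25% of all genes tested did) and 27 had no overlap (6.04% of all). A small p in a fit with siPOOL as a term favours both traits, so they are no separate support. Next after the 4 called genes came Aurkc, the Aurora kinase of meiotic germ cells. It had 37.9 CPM with siTfap4, 30.9 with siWiz, 25.6 with siZic2 and 30.4 with siNeg number 2, against 22.8, 11.8, 9.84 and 13.1 CPM in number 1 (log2 1.18, SE 0.17, adjusted p = 0.0512). The groups did not overlap, and 57.7% of its transcript end is shared with other genes. Med16, a subunit of the Mediator complex, averaged 67.6 ± 12.6 CPM in number 2 and 33.8 ± 17.7 CPM in number 1 (log2 1.10, adjusted p = 0.0711). Its groups overlapped through siTfap4 number 1, at 59.9 CPM. The long noncoding RNA Gm10827 averaged 7.52 ± 1.43 CPM in number 2 and 2.80 ± 0.703 CPM in number 1 (log2 1.43, adjusted p = 0.0711). Further genes of this group, named after their values were seen, act in the germline: Dmrt1, a sex determination factor, was at log2 0.78 and Rhox13, an X-linked homeobox gene, at 1.11 (adjusted p = 0.0991 and 0.0721). The 40 genes were not sorted by germline role, and Dnah8, a gene of cilia and flagella, was lower. The genes named are therefore no count of germline genes in this group.

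On the lower side the smallest p-values beyond that of Dnah8 were in Sox11, Ttn, Lpp, Pdzd2 and Ahnak2. Sox11, an HMG-box factor of neural and primed cells, had 38.0 CPM with siTfap4, 32.3 with siWiz, 29.4 with siZic2 and 26.0 with siNeg number 2, against 81.6, 61.1, 50.7 and 45.8 CPM in number 1 (log2 -0.91, SE 0.14, adjusted p = 0.0711). Every library numbered 2 was below every one numbered 1. The sarcomere protein gene Ttn averaged 31.1 ± 9.02 CPM in number 2 and 64.3 ± 29.8 CPM in number 1 (log2 -0.99, adjusted p = 0.0721), and its groups overlapped. Lpp, a LIM protein of focal adhesions, averaged 25.8 ± 6.46 CPM in number 2 and 48.5 ± 7.46 CPM in number 1 (log2 -0.93, adjusted p = 0.0721). Pdzd2, a PDZ-domain protein gene, averaged 14.6 ± 1.41 CPM in number 2 and 29.9 ± 7.60 CPM in number 1 (log2 -1.01, adjusted p = 0.0721). Ahnak2, which encodes a very large scaffold protein, averaged 18.8 ± 4.67 CPM in number 2 and 38.9 ± 12.4 CPM in number 1 (log2 -1.03, adjusted p = 0.0757). Lpp, Pdzd2 and Ahnak2 had no overlap between the numbers.

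Cell states were compared through gene lists, of which Stra8 was the 1 member that passed the test. Counts in these lists are therefore of members with an unadjusted p under 0.05, against the 7.54% of all genes tested that were higher and the 7.92% that were lower, and they describe the lists without testing them. The median log2 difference of all genes was 0.01. The lists share some members.

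Markers of the 2C-like state had the highest list median, 1.07. Of 17 in the table, 6 had enough reads to be tested, and 5 of these were higher by the unadjusted p and 0 lower. Zscan4c, a telomere regulator that marks this state, had 16 counts with siTfap4, 48 with siWiz, 14 with siZic2 and 12 with siNeg number 2, against 0, 10, 10 and 4 counts in number 1. Its CPM did not overlap (log2 2.14, SE 0.53, adjusted p = 0.167), though 65.4% of its transcript end is shared with its relatives. Zscan4c passed the read filter only through libraries numbered 2. The filter therefore favoured a higher value in number 2 for Zscan4c and, in part, for the count and median of this list. The deubiquitinase gene Usp17la averaged 3.54 CPM in number 2 and 1.13 CPM in number 1 (log2 1.60, adjusted p = 0.118). Zfp352, another marker of the state, was not tested and had 19 counts in libraries numbered 2 and 10 in those numbered 1. The median of the list was above 0 in each siPOOL and highest in siTfap4, at 1.70. The 2C-like levels were low throughout, and 0 members were called by edgeR.

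Germline genes leaned the same way. Of 17 tested, 1 rose (Stra8), 7 were higher by the unadjusted p and 0 lower, and 14 stood above 0, with a median of 0.36. Their summed level was 1290 CPM with siTfap4, 1230 with siWiz, 1120 with siZic2 and 1370 with siNeg number 2, against 905, 1040, 866 and 823 CPM in number 1. The sums did not overlap, but they include Stra8, at 165 CPM in siZic2 number 2 and 61.2 CPM in siWiz number 1. Without Stra8 the sum of siZic2 number 2 would fall below that of siWiz number 1. Members named after their values were seen included Fkbp6, a gene of meiotic chromosome pairing, at log2 1.28 (adjusted p = 0.174) and the piRNA pathway gene Mael at 0.50 (adjusted p = 0.231). The X-linked homeobox genes Rhox6 and Rhox9, named likewise, were at 0.49 and 0.40 (adjusted p = 0.213 and 0.245).

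Markers of primitive endoderm, the extra-embryonic lineage next to the epiblast, had a median of -0.48. Of 13 tested, 0 were higher and 5 lower by the unadjusted p, and 1 stood above 0. The lower members were genes of basement membrane and endocytosis. Lamc1, the laminin gamma 1 chain, had 57.5 CPM with siTfap4, 73.2 with siWiz, 141.9 with siZic2 and 99.1 with siNeg number 2, against 101, 123, 189 and 207 CPM in number 1 (log2 -0.76, SE 0.15, adjusted p = 0.0991). It was lower in every siPOOL while the groups overlapped. The collagen gene Col4a1 averaged 2.70 CPM in number 2 and 6.27 CPM in number 1 without overlap (log2 -1.22, adjusted p = 0.126). The transcription factors that define the lineage were low: Gata6 lay between 0.481 and 1.83 CPM in number 2 and between 0.744 and 2.32 CPM in number 1.

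Formative and primed markers were lower by the unadjusted p in 3 of 16 and higher in 0, with a median of -0.20. They were Sox11, given above, the epithelial factor Grhl2 (14.8 CPM in number 2 and 27.6 CPM in number 1, log2 -0.90, adjusted p = 0.0982) and, named after its values were seen, the homeobox factor Otx2 (31.2 CPM in number 2 and 47.3 CPM in number 1, log2 -0.59, adjusted p = 0.174). None of these overlapped between the numbers.

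Pluripotency factors stood near 0 as lists. Of 22 naive factors 3 were higher and 2 lower by the unadjusted p (median 0.03), and of 14 general factors 1 was higher and 0 lower (median 0.02). The DNA demethylase gene Tet2 averaged 79.4 CPM in number 2 and 116 CPM in number 1 (log2 -0.55, adjusted p = 0.167). Fbxo15, a target of the pluripotency factors, averaged 344 CPM in number 2 and 254 CPM in number 1 (log2 0.44, adjusted p = 0.192). Tet2 and Fbxo15 did not overlap between the numbers.

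Other lineages had few tested members. Of 11 trophectoderm markers 1 was higher and 0 lower (median -0.28), and that was Tfap2c, a factor of trophoblast and germ cells, at 235 CPM in number 2 and 146 CPM in number 1 without overlap (log2 0.69, adjusted p = 0.0991). Of 6 neural markers 2 were higher (median 0.04), the paired-box factor Pax6 (log2 0.82, adjusted p = 0.126) and the tubulin gene Tubb3 (0.46, adjusted p = 0.193). Of 5 mesoderm markers and 3 fibroblast markers 0 had an unadjusted p under 0.05 (medians 0.45 and -0.21). The mesoderm marker Mixl1, at most 0.868 CPM in number 1, passed the read filter only through libraries numbered 2, and Mesp1 passed in part through them. The filter therefore favoured a higher mesoderm median.

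Signalling targets were mixed. Among 14 Nodal and BMP targets 5 were higher and 1 lower (median 0.01). Lefty1, a secreted inhibitor of Nodal that is itself a Nodal target, had 211 CPM with siTfap4, 220.5 with siWiz, 207 with siZic2 and 175 with siNeg number 2, against 144, 122, 133 and 98.3 CPM in number 1 (log2 0.72, SE 0.13, adjusted p = 0.0982). All libraries numbered 2 were above all numbered 1. Its neighbour Lefty2 averaged 189 CPM in number 2 and 123.5 CPM in number 1 (log2 0.62, adjusted p = 0.126). Among 23 ERK targets and immediate early genes 0 were higher and 5 lower (median 0.02), with Spry4, a feedback inhibitor of ERK signalling, at -0.79 (adjusted p = 0.149) and the immediate early factor Fos at -1.17 (adjusted p = 0.185). Among 17 LIF and STAT3 targets 0 were higher and 1 lower, the LIF receptor gene Lifr (43.1 CPM in number 2 and 65.3 CPM in number 1, log2 -0.59, adjusted p = 0.174). Of 9 Wnt targets 0 had an unadjusted p under 0.05 (median -0.29). Of 16 YAP and SRF targets 0 were higher and 2 lower.

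Hypoxia and glycolysis genes lay on the lower side. Of 22 hypoxia response genes 0 were higher and 5 lower by the unadjusted p, with a median of -0.28 and 2 above 0. Ndrg1, a gene induced by low oxygen, had 22.3 CPM with siTfap4, 23.2 with siWiz, 17.0 with siZic2 and 18.0 with siNeg number 2, against 25.8, 39.7, 40.1 and 36.6 CPM in number 1. The numbers did not overlap, with the smallest gap in siTfap4 (log2 -0.82, SE 0.19, adjusted p = 0.135). Vegfa, the endothelial growth factor, averaged 65.6 CPM in number 2 and 92.3 CPM in number 1 (log2 -0.50, adjusted p = 0.198). Of 17 glycolysis genes 0 were higher and 4 lower, with a median of -0.22, among them the enolase gene Eno1 (52.4 CPM in number 2 and 78.6 CPM in number 1, log2 -0.54, adjusted p = 0.186). Of the sequence at the end of Eno1, 84.6% is shared with Eno1b, so its counts are uncertain.

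Ribosomal protein and respiratory chain genes lay on the higher side. Of 41 cytosolic ribosomal protein genes 24 were higher and 1 lower by the unadjusted p, 38 stood above 0 and the median was 0.46. Their summed level was 65900 CPM with siTfap4, 65800 with siWiz, 62000 with siZic2 and 69100 with siNeg number 2, against 53400, 59600, 46000 and 42000 CPM in number 1. The sums did not overlap, and siWiz had the smallest difference. Rpl18 averaged 1058 CPM in number 2 and 685 CPM in number 1 (log2 0.65, adjusted p = 0.126), and the counts of 18 of the 41, Rpl18 among them, are uncertain because most of the sequence at their ends occurs in other genes. Of 48 nuclear-encoded respiratory chain subunits 25 were higher and 0 lower, 46 stood above 0 and the median was 0.35, with the complex III subunit gene Uqcrq at 800.2 CPM in number 2 and 509 CPM in number 1 (log2 0.66, adjusted p = 0.120). After a correction of protein-coding genes for GC content and length the medians were 0.17 for ribosomal proteins and 0.16 for the respiratory chain, and the members higher by the unadjusted p were 9 of 41 and 9 of 48, against 714 of 12483 genes. The same correction left 1.09 for the 2C-like list, 0.28 for germline genes, -0.38 for primitive endoderm and -0.31 for hypoxia. It does not remove the part of the read filter in the 2C-like median. Mitochondrially encoded mRNAs, 8 in number, had 0 members with an unadjusted p under 0.05 (median 0.14).

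Nuclear noncoding RNAs were the other list far below 0. Of 14 tested 0 were higher, 8 lower and 0 above 0, with a median of -0.49. Their summed level was 4390 CPM with siTfap4, 3810 with siWiz, 3950 with siZic2 and 3300 with siNeg number 2, against 5870, 4990, 5640 and 6590 CPM in number 1. No sum of number 2 reached one of number 1. Neat1, the scaffold of paraspeckles, had 204 CPM with siTfap4, 137 with siWiz, 136 with siZic2 and 179 with siNeg number 2, against 351, 169.5, 237.5 and 307 CPM in number 1 (log2 -0.67, SE 0.14, adjusted p = 0.118). The gap was smallest in siWiz. Meg3, the maternally expressed RNA of the Dlk1-Dio3 locus, averaged 617 CPM in number 2 and 1087 CPM in number 1 (log2 -0.73, adjusted p = 0.140). Neat1 has 20771 bases and Meg3 14548. The GC and length correction ran on protein-coding genes and covered 1 of the 14, so the part of length in this list was not tested. Among 18 imprinted genes, a list that holds Meg3 too, 3 were higher and 9 lower (median -0.21), and the median was 0.20 in its protein-coding members alone. After the GC and length correction the median of those members was 0.003, with 3 of 13 higher and 3 lower.

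The remaining lists covered the cell cycle, stress, cell death, RNA interference and other pathways. Of 36 DNA replication genes 3 were higher and 1 lower, and of 30 mitosis genes 3 were higher and 5 lower, with the proliferation marker Mki67 at 131 CPM in number 2 and 184 CPM in number 1 (log2 -0.50, adjusted p = 0.173). Of 24 replication-dependent histone genes, whose messages mostly lack a poly(A) tail, 3 were higher and 1 lower (median 0.16, and -0.01 after the GC and length correction). Of 29 p53 targets 4 were higher and 2 lower, and of 26 apoptosis regulators 8 were higher and 3 lower, the apoptosis gene Bax being in both (log2 0.62, adjusted p = 0.176). Of 31 integrated stress response genes 0 had an unadjusted p under 0.05. Of 22 oxidative stress and Nrf2 targets 3 were higher and 1 lower, led by the peroxiredoxin gene Prdx1 at 2057 CPM in number 2 and 1318 CPM in number 1 without overlap (log2 0.73, adjusted p = 0.173). Of 16 genes of the microRNA and RNA interference machinery 0 were higher and 3 lower, with Ago2, the slicing Argonaute, at 265 CPM in number 2 and 377 CPM in number 1 (log2 -0.50, adjusted p = 0.174). After the GC and length correction 1 of the 16 was higher and 0 lower, with a median of -0.05 in place of -0.15. Of 19 described targets of the deleted microRNAs 2 were higher and 0 lower, with the cyclin gene Ccnd2 at 330.3 CPM in number 2 and 224 CPM in number 1 (log2 0.57, adjusted p = 0.155).
Each of the other lists had at most 4 members higher and at most 4 lower by the unadjusted p, with medians between -0.24 (epithelial genes) and 0.10 (EMT genes). They were interferon, unfolded protein response, heat shock, cholesterol, fatty acid, ribosome biogenesis, small nucleolar RNA host, lysosome, growth arrest and polyadenylation genes beside the epithelial and EMT genes. Of the 22 epithelial genes 1 was higher and 3 lower, and after the GC and length correction 1 was higher and 9 lower (median -0.29).

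With any 1 siPOOL pair left out, the 2C-like median lay between 0.85 and 1.45, that of germline genes between 0.30 and 0.50 and that of ribosomal proteins between 0.35 and 0.60. The limit from the read filter given above for the 2C-like list holds here too. The median of primitive endoderm markers lay between -0.61 and -0.38, that of formative and primed markers between -0.44 and -0.12 and that of nuclear noncoding RNAs between -0.56 and -0.31. The median of Wnt targets lay between -0.35 and 0.04 and so changed sign.

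**Figure D2:**
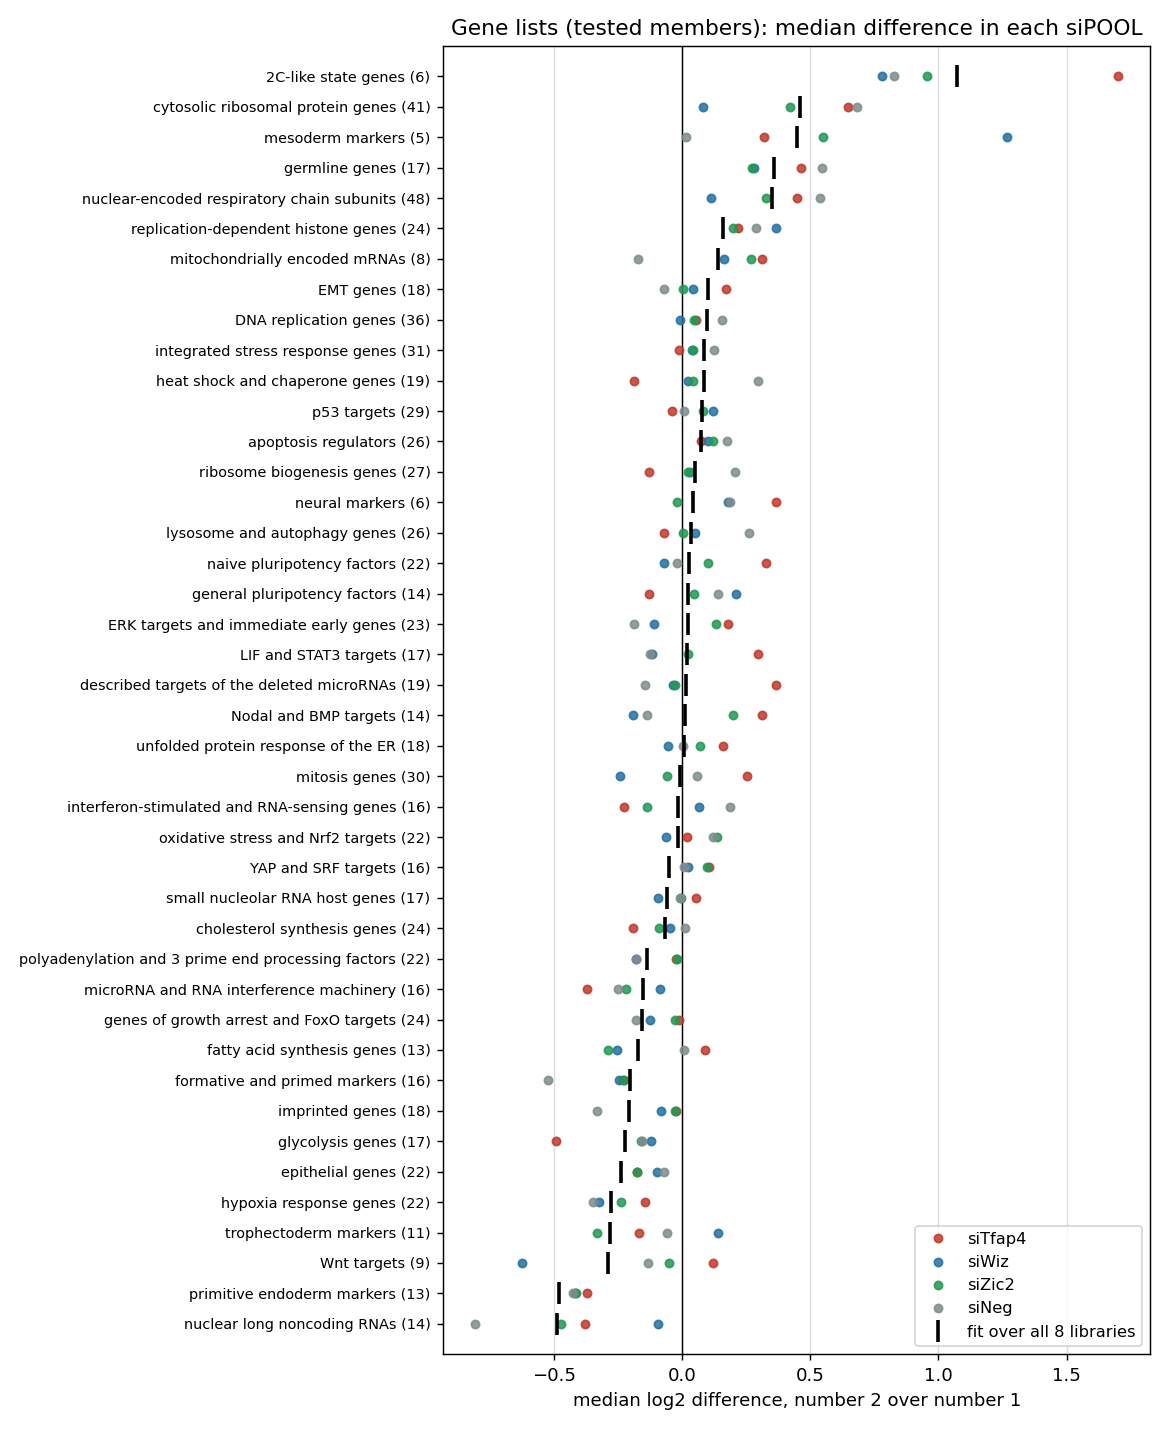
Median log2 difference, number 2 over number 1, of each gene list with at least 5 tested members, 1 point per siPOOL and a bar for the fit over all 8 libraries, with the number of members in brackets. The 2C-like list stands highest, at 1.07 in the fit, and nuclear long noncoding RNAs lowest, at -0.49.

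Transcript length moved with the difference in every siPOOL. Among 12486 protein-coding genes, Spearman's rho across genes between the difference and length was -0.20 with siTfap4, -0.14 with siWiz, -0.39 with siZic2 and -0.34 with siNeg (genes of a siPOOL share its 2 libraries and are not independent). The 673 genes under 1000 bases had a median of 0.31, with 222 higher and 6 lower by the unadjusted p. The 304 genes over 10000 bases had a median of -0.32, with 1 higher and 121 lower. The median length was 964 bases for the ribosomal protein genes and 1111 for the respiratory chain genes, against 3119 for all protein-coding genes tested. Stra8 has 1803 bases, Msc 1741 and Dnah8 16685. With protein-coding genes corrected for GC content and length, the difference was 1.46 for Stra8 (adjusted p = 0.00141) and -1.10 for Dnah8 (adjusted p = 0.0347). Ahnak2, of 5443 bases, was then called as well, at -1.03 (adjusted p = 0.0409). Ttn, of 106824 bases, was at -0.31 and Lpp at -0.53 after that correction (adjusted p = 0.359 and 0.190). GC content of the last 300 bases went different ways: rho was -0.13 with siTfap4, 0.32 with siWiz, 0.09 with siZic2 and 0.38 with siNeg. In genes with over 55% GC the median difference was -0.21 in siTfap4 and 0.29 in siNeg.

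**Figure D3:**
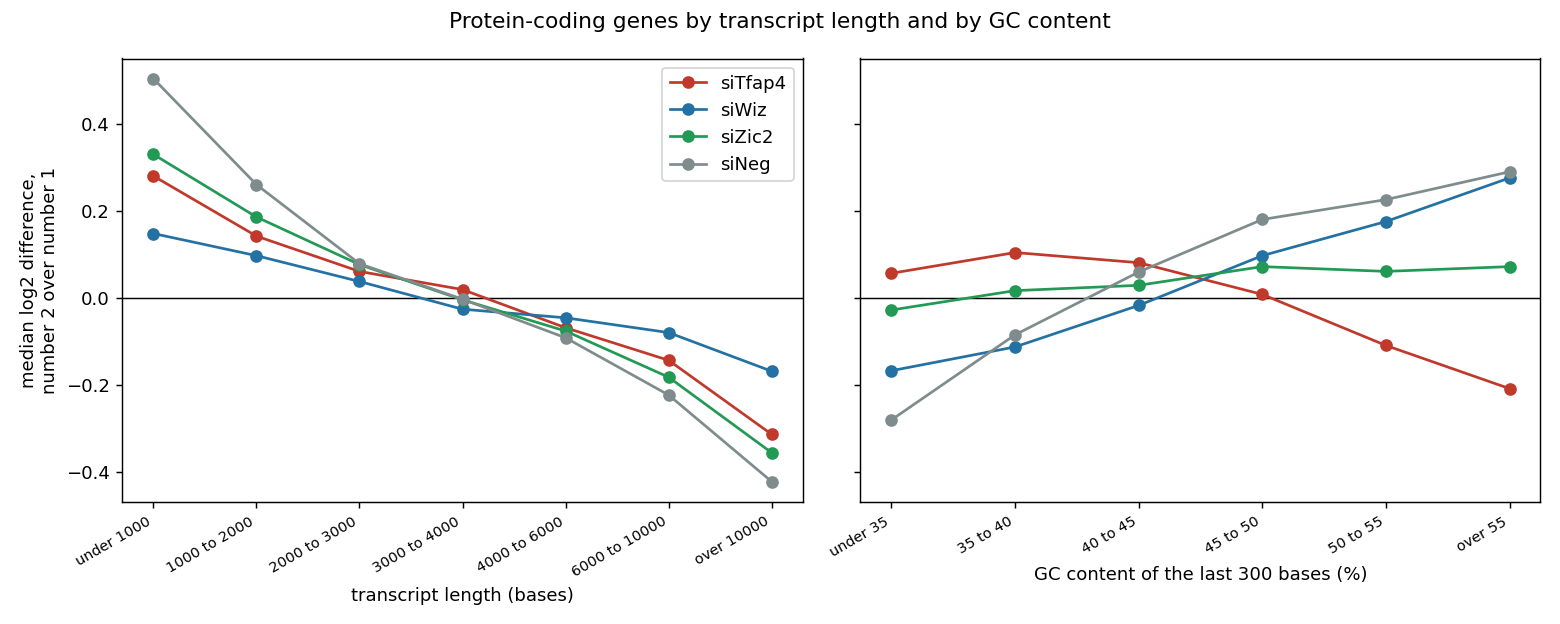
Median log2 difference, number 2 over number 1, of protein-coding genes by transcript length in bases (left) and by GC content of the last 300 bases in percent (right), 1 line per siPOOL. All 4 lines fall with length, from medians above 0 under 1000 bases to below 0 over 10000, while with GC content the line of siTfap4 ends lowest, at -0.21, and those of siWiz and siNeg climb to 0.28 and 0.29.

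Gene classes differed as well. Of 534 loci of the class TEC, unconfirmed gene models that are often intronic, 1 was higher and 129 lower by the unadjusted p (median -0.46), and of 80 sense intronic loci 0 were higher and 19 lower (median -0.46). Processed pseudogenes, intronless copies of messages, had a median of 0.19, with 68 higher and 25 lower of 503. Of 54 small nucleolar RNAs 17 were higher and 3 lower (median 0.21). What part length, GC content and class have in the list differences beyond the correction given above was not tested.

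The differences of the 4 siPOOLs were only partly alike. Of the variance of log2 CPM over genes, siPOOL held 66.4% (22.1% per degree of freedom), number 12.7% and the remainder 21% (6.98% per degree of freedom). Across the 14647 genes, Pearson's r between the differences of 2 siPOOLs was 0.33 for siWiz and siNeg, 0.27 for siZic2 and siNeg, 0.25 for siTfap4 and siZic2 and 0.17 for siWiz and siZic2. It was 0.13 for siTfap4 and siNeg and -0.04 for siTfap4 and siWiz. These 6 values are descriptions across genes, and no 2 siPOOLs share a library. In siTfap4, 2008 genes differed over 2-fold between the libraries (1313 higher and 695 lower in number 2), against 1352 for siWiz (556 and 796), 766 for siZic2 (337 and 429) and 1362 for siNeg (426 and 936).

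The siTfap4 pair differed most from the others. A test of number within siTfap4 against number in the other 3 siPOOLs called 105 genes (0.717%), and the same test called 0 genes for siWiz, siZic2 and siNeg. At an unadjusted p under 0.05 the counts were 2242 with siTfap4 (15.3%), 671 with siWiz (4.58%), 147 with siZic2 (1%) and 432 with siNeg (2.95%). DESeq2 called 210, 5, 0 and 1. In the fits for siWiz, siZic2 and siNeg, the difference of the siTfap4 pair stayed in the residual spread, which widens it. The 0 calls there are therefore not a like comparison with the 105, and do not show that those pairs were alike. Of the 105 genes, 103 were higher in siTfap4 number 2 than in siTfap4 number 1, with a median log2 difference of 1.91 over the 105, against medians of -0.26 in siWiz, 0.13 in siZic2 and -0.05 in siNeg. In 96 of the 105 both siTfap4 libraries lay below the other 6, which held for 23% of all genes tested.

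G0s2, an inhibitor of the lipase that starts fat breakdown, had 19.4 CPM in siTfap4 number 2 and 2.48 CPM in siTfap4 number 1, and between 73.1 and 111 CPM in the other 6 libraries (log2 difference of differences 3.23, SE 0.40, adjusted p = 0.00679). Mir703, an annotated microRNA locus of chromosome 5 whose reads here come from a library primed at poly(A) and not from the mature microRNA, had 28.7 CPM in siTfap4 number 2 and 2.23 CPM in number 1, and between 136 and 217 CPM elsewhere (3.65, SE 0.44, adjusted p = 0.00679). Rpl22l1, a paralog of the ribosomal protein gene Rpl22, had 215.5 CPM in siTfap4 number 2 and 37.9 CPM in number 1, and between 409 and 587 CPM elsewhere (2.28, SE 0.30, adjusted p = 0.00943), and 61.5% of its transcript end is shared with other genes. In all 3, siTfap4 number 2 stood between siTfap4 number 1 and the other siPOOLs.

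**Figure D4:**
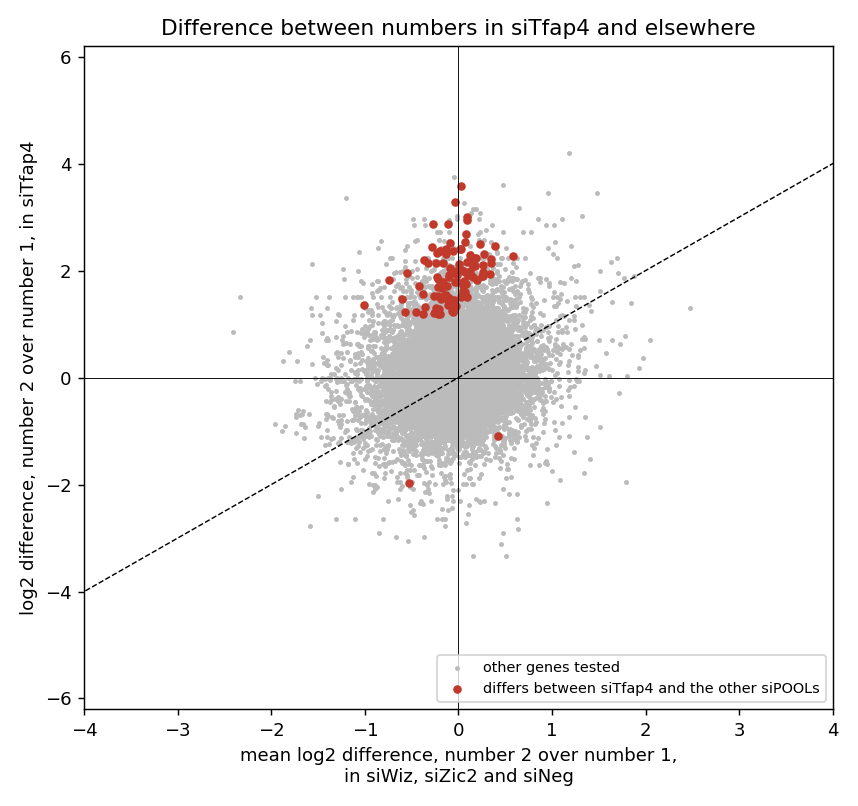
Log2 difference, number 2 over number 1, in siTfap4 (vertical) against the mean of the other siPOOLs (horizontal), 1 point per gene tested, with the line of equality dashed and the 105 genes of the interaction test in red. Of the 105, 103 are above 0 on the vertical axis, while on the horizontal axis they gather around 0.

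In the other siPOOLs the gene with the smallest p is given as values. Dppa5a, which encodes an RNA-binding protein typical of pluripotent cells, had 246 CPM in siWiz number 2 and 848 CPM in siWiz number 1, and its adjusted p in the test for siWiz was 0.413. The mitochondrial message mt-Nd2 had 2467 CPM in siNeg number 2 and 7502 CPM in number 1 (adjusted p = 0.993 for siNeg). Gpn2, a GTPase gene, had 10.7 CPM in siZic2 number 2 and 8.32 CPM in number 1, while it had 0.669 CPM in siWiz number 2 and 7.05 CPM in siWiz number 1 (adjusted p = 1 for siZic2).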

How the data were processed

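Polyadenylated RNA of transfected cells was sequenced as 8 libraries with QuantSeq 3' FWD from 500 ng of RNA, per the labels. The deposited values are whole read counts per Ensembl gene, with no normalization by the authors, and 0 columns were left unmapped. Per the submitters' processing notes, Trim Galore and GRCm38 were used. The sources used here do not give the aligner, the counting program, the strand setting or any molecular identifiers, so antisense and overlapping genes cannot be told apart.

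Of 55421 genes, 55240 matched GENCODE M21. After filterByExpr 14647 were scaled by TMM and fitted by edgeR 4.0.16 (R 4.3.3, quasi-likelihood test) with siPOOL and number as terms, all 8 libraries and 3 residual degrees of freedom (coefficient of variation 18.9%). Benjamini-Hochberg adjustment ran over all genes, with a threshold of 0.05. An exact sign test over 4 pairs cannot go below p = 0.125, so none was used. Because nothing says that the libraries came from separate cultures beyond the term biological duplicates, p-values measure only the spread between these libraries. CPM are scaled counts, and the log2 differences of single siPOOLs used a prior count of 2. Interaction fits set number within 1 siPOOL against the other 3. A transcript end counts as shared where its last 300 bases hold 50-base words of other genes.

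Members, lists and the naming rule were chosen with earlier results of these data known. The rule took genes averaging at least 5 CPM that had the same sign in 4 siPOOLs, called ones first, then the smallest p up to 6 per direction, up to 2 members of a list (4 if called) and up to 3 genes per interaction. Alternatives were RLE factors, library totals, 2 other filters, no siPOOL block, DESeq2 1.42.0, limma 3.58.1 voom, a 1.5-fold minimum, protein-coding genes alone, GC and length correction, thinning, and each pair left out. Library totals limit the precision of low counts.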

Additional observations from a re-analysis of the deposited data

Results flagged for a closer look

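The 2 libraries of siTfap4 differed from each other unlike those of the other siPOOLs in 105 genes by the interaction test. The sizes of the difference of differences were 3.65 (log2) for Mir703, 3.23 for G0s2 and 2.28 for Rpl22l1. Pim3 and Neat1, both list members, had 1 siPOOL far from the other 3, judged by the gap to the nearest value over the whole range. Of 92 genes looked at in this way these 2 stood out, where chance gives about 1 of 20, so their number is no more than chance gives. For Pim3, a kinase gene among the LIF and STAT3 targets, the log2 difference was 1.503 with siTfap4, 0.16 with siWiz, 0.14 with siZic2 and -0.01 with siNeg, a ratio of 0.89. Pim3 was also 1 of the 105 genes called by the interaction test in siTfap4 (difference of differences 1.41, adjusted p = 0.031). For Neat1 the log2 difference was -0.78 with siTfap4, -0.31 with siWiz, -0.80 with siZic2 and -0.78 with siNeg, a ratio of 0.959.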

How the results depend on the processing

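The 4 calls (3 higher, 1 lower in number 2) remained the same genes with RLE factors, library totals, a mean of at least 5 CPM, protein-coding genes alone and thinning. With GC and length correction 5 genes were called (3 higher, 2 lower), the 4 among them. The other settings moved the count: 447 (231 higher, 216 lower) with at least 1 count, 139 (89 and 50) by DESeq2, 8 (6 and 2) by limma voom, 1 (1 and 0) with a 1.5-fold minimum and 0 without the siPOOL block, where 1074 genes had an unadjusted p under 0.05. The 4 genes were among those called by DESeq2, limma voom and with at least 1 count. Of the 447, 0 lay outside the genes of the main test. Leaving out 1 siPOOL pair gave 0 to 61 calls (0 to 30 higher, 0 to 31 lower). Added after seeing the data, an adjusted p under 0.10 gave 40 (27 and 13), and the siTfap4 pair left out with GC and length correction gave 19 (11 and 8). The causes were not tested.

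For the interaction in siTfap4 the count was 82 with RLE factors, 79 for genes averaging at least 5 CPM and 210 by DESeq2; DESeq2 gave 5 in siWiz and 1 in siNeg. Of the values of named genes 3 reversed: the log2 difference of Myc was 0.0787 without the siNeg pair (-1.37 without the siZic2 pair), and the log2 difference of Tnrc6b was 0.0198 with GC and length correction and 0.0863 with the siTfap4 pair also left out. Of the other values of named genes under the alternatives, 1327 kept direction and side of the threshold, 93 newly passed it and 16 no longer did. Library totals alone moved the median of all genes to -0.05.

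The numbers did not meet the criterion for paired samples, since r was over 0.1 in 5 of 6 pairs of siPOOLs and not in siTfap4 and siWiz. With number as a replicate block, siTfap4 against siNeg gave 3243 calls in place of 2330, of which 2328 were shared, and siWiz and siZic2 against siNeg gave 0 with and without it.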
